A study of Mus musculus with 20 samples.

Results

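Of the 20 libraries of the series, 10 were compared here: 5 of hematopoietic stem cells (HSC) and 5 of multipotent progenitors (MPP), all from cells without leptin receptor (Lepr) on their surface, named Lepr- below. They were taken by the name of their count file, which gives the gate and the replicate, and were paired by the date in that name. All mice were C57BL/6 and 7 to 9 weeks old, no treatment or engineered allele was named, and each replicate pooled the bone marrow of 2 mice. From each pool the sorters took lineage- Sca-1+ c-kit+ (LSK) cells, which were CD150+CD48- for SLAM-HSC and CD150-CD48- for SLAM-MPP, and both were split by a biotinylated anti-Lepr antibody. A library held RNA of 1000 to 8000 cells, amplified with SMART-Seq v4. The Lepr+ HSC and Lepr+ MPP libraries (5 each, from the same pools) serve below as the comparison. The groups are therefore defined by 1 antigen, CD150, and the data are bulk sums, in which fewer cells of a type and less RNA per cell cannot be told apart.

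HSC sustain blood formation for life and restore it after transplantation, while MPP lie directly downstream, have lost durable self-renewal and still give rise to every lineage. The CD150+ compartment is known to hold stem cells with a platelet bias that transcribe Vwf, whereas MPP begin to transcribe lymphoid genes such as Flt3 and Dntt. Stem cells are also described as mostly quiescent, so genes of DNA replication and mitosis are a usual point of comparison between the compartments. The labels state the question as differential expression by cell type and Lepr status. Here it is asked of Lepr- cells: which genes differ between HSC and MPP?

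The Lepr- libraries held 13707332 to 29933041 counts in genes. Thinned to 9532993 counts each, the libraries showed 15631 to 20788 genes in HSC and 15081 to 19992 in MPP. MPP replicate 4 was the library least like its group, with a mean correlation of 0.881 with the other MPP libraries, against 0.918 to 0.936 for the remaining 4. The antigens of the sort were read as a check of the gates and support nothing further. Slamf1, which encodes CD150, was at 63.8, 53.7, 40.7, 28.3 and 46.7 CPM (counts scaled to a common library size after TMM) in HSC replicates 1 to 5 and 3.82, 10.01, 7.64, 0.0697 and 4.04 CPM in MPP replicates 1 to 5. The groups did not overlap. Kit was at 368 to 779 CPM in HSC and 735 to 1109 CPM in MPP, Ly6a (Sca-1) at 40.7 to 119 and 100.5 to 228 CPM, and Cd48 at 8.24 to 25.02 and 32.4 to 68.5 CPM. Lepr mRNA was near 0 in both groups, with 3 counts over the HSC libraries and 27 over the MPP libraries (ratio 7.78 per count sequenced, 95% exact interval 2.39 to 40.1, counting error only).

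Between Lepr- HSC and Lepr- MPP, 451 of 16509 genes tested differed at a Benjamini-Hochberg adjusted p under 0.05 in edgeR's quasi-likelihood test, which is 2.73% (a gene past this threshold is called below). HSC were higher for 201 of them (1.22%) and lower for 250 (1.51%). The median log2 difference, always HSC minus MPP, was 1.57 among genes called higher and -1.48 among genes called lower, against 0.01 over all genes tested. The direction was the same in 5 of 5 pairs for 441 of the called genes and in 4 of 5 for the other 10. Without overlap between the groups were 461 genes higher in HSC (2.79%) and 567 lower (3.43%), and they include 412 of the called genes. With the replicate number as a block, since a number marks 1 pool of mice, 672 genes were called higher (4.07%) and 566 lower (3.43%), and 449 of the 451 remained called. The dates in the file names fall in June for replicates 1, 3 and 5 and in July for 2 and 4. All 201 higher genes and all 249 lower genes with a value in both months had the same sign in each. These genes were called from both months together, which largely fixes that agreement in advance. Alone the June libraries gave 81 calls and the July libraries 0 (798 genes at an unadjusted p under 0.05). Without single Lepr- libraries the count ran from 301 to 462, and without the 3 Lepr+ libraries least like their group, which enter through the shared estimate of spread, it was 768. P-values of the fit without the block measure the spread between libraries within a group, over all 20 libraries. Differences between pools, sorts and libraries are mixed in that spread, and the sharing of pools between groups is left out.

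**Figure D1:**
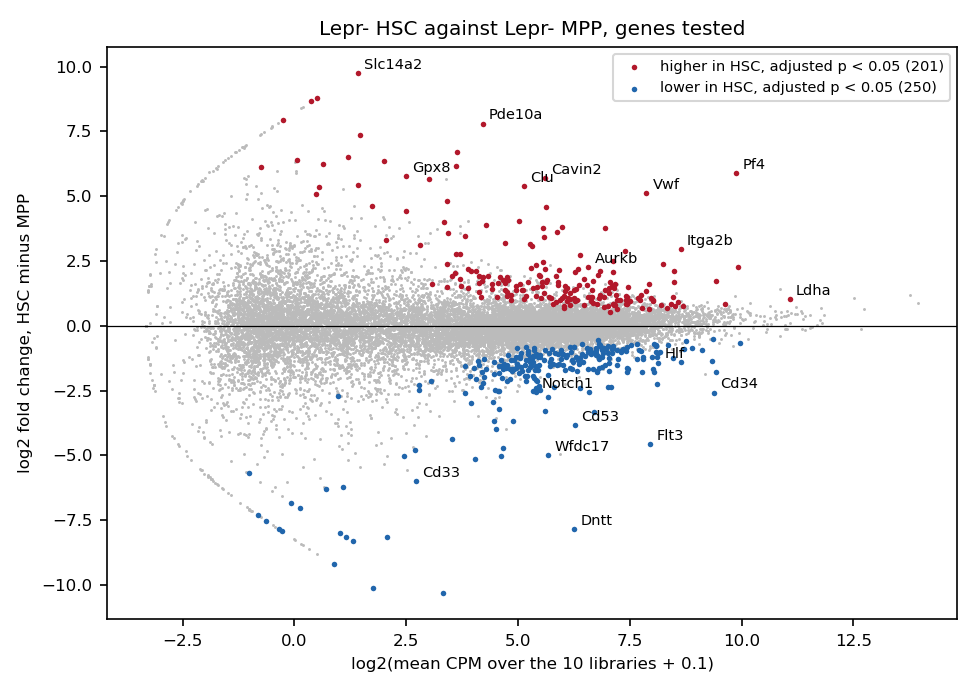
Each point is 1 of the 16509 genes tested, with log2 of its mean CPM plus 0.1 over the 10 Lepr- libraries on the x axis and its log2 fold change, HSC minus MPP, on the y axis. The 201 genes called higher and the 250 called lower lie on both sides of 0 across the range of levels; the labelled genes include those described in the text.

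Genes of megakaryocytes and platelets had the highest median difference of the 34 lists read. Of 31 tested members of a list of 33, 16 were called higher and 0 lower, where 1.22% and 1.51% of all genes tested were. The list's median difference was 2.13 on the log2 scale, against 0.01 over all genes tested. It was 1.97 in the June and 1.97 in the July libraries. Among the 16 were the granule protein genes Pf4 and Vwf, the integrin chains Itga2b and Itgb3, the thrombin receptor genes F2r and F2rl2, the subunits Gp5 and Gp9 of the platelet receptor for von Willebrand factor, and the regulators Fli1 and Zfpm1. In HSC no library had less than 5742 CPM summed over the list (highest 10425), and in MPP none had more than 3236 (lowest 2501).

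Pf4, a chemokine stored in platelet granules (chr5:90772435-90773383, plus strand, GENCODE M21 on GRCm38), was at 1159.9, 1145, 1316, 2298 and 3368 CPM in HSC replicates 1 to 5. In MPP it was at 11.3, 12.6, 15.3, 51.5 and 64.3 CPM. Every HSC library was far above every MPP library, a log2 difference of 5.91 ± 0.69 (SE; 60.1-fold, adjusted p = 6.92e-05). Vwf, the carrier of factor VIII and the ligand for platelet adhesion (chr6:125546774-125686679, plus strand), was at 232, 463, 773, 409 and 396 CPM in HSC and 4.88, 21.7, 13.02, 1.95 and 23.02 CPM in MPP. The groups lay more than 10 times apart at their nearest libraries, with a log2 difference of 5.14 ± 0.55 (adjusted p = 2.66e-05). Itga2b (CD41, chr11:102453297-102470122, minus strand) was at 364, 749, 1032, 579.9 and 799 CPM in HSC against 59.3, 118, 101, 77.7 and 96.04 CPM in MPP, 2.96 ± 0.39 on the log2 scale (adjusted p = 0.000176). Clu, a secreted chaperone of platelet granules, was at 48.5, 61.3, 103, 68.5 and 60.2 against 1.78, 0.531, 1.604, 0 and 4.26 CPM, and Cavin2, a coat protein of caveolae, at 77.03, 55.9, 200.4, 78.04 and 63.3 against 0.568, 0.455, 6.04, 0.0697 and 1.804 CPM. HSC replicate 3 stood above the other HSC libraries for Cavin2, and MPP replicate 3 was the highest of its group. The remaining calls ran from 0.99 ± 0.21 for the ETS factor Fli1 to 3.804 ± 0.61 for F2rl2. In 10 fits, each without 1 Lepr- library, 15 of the 16 kept their calls throughout. The tetraspanin Cd9 (2.12 ± 0.48, adjusted p = 0.0169) lost its call without HSC replicate 4 or MPP replicate 1, 2 or 3 (adjusted p up to 0.0601).

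Not every platelet gene followed. Nfe2, a late megakaryocyte transcription factor, was at 490.4 to 1014 CPM in HSC and 569 to 1067 CPM in MPP (0.07 ± 0.23, adjusted p = 0.972), and Selp, P-selectin of granule membranes, at 32.5 to 48.04 and 15.4 to 59.8 CPM. These ranges overlapped. Thbs1 had the most negative value of the list (-2.26 ± 0.66, adjusted p = 0.0825) and was called lower with the replicate block (adjusted p = 0.0229). The block called 20 members higher, where it called 4.07% of all genes tested higher. Genes of late platelet formation were scarce: Tubb1 did not exceed 9.59 CPM in a Lepr- library, and Gp6 had no count.

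**Figure D2:**
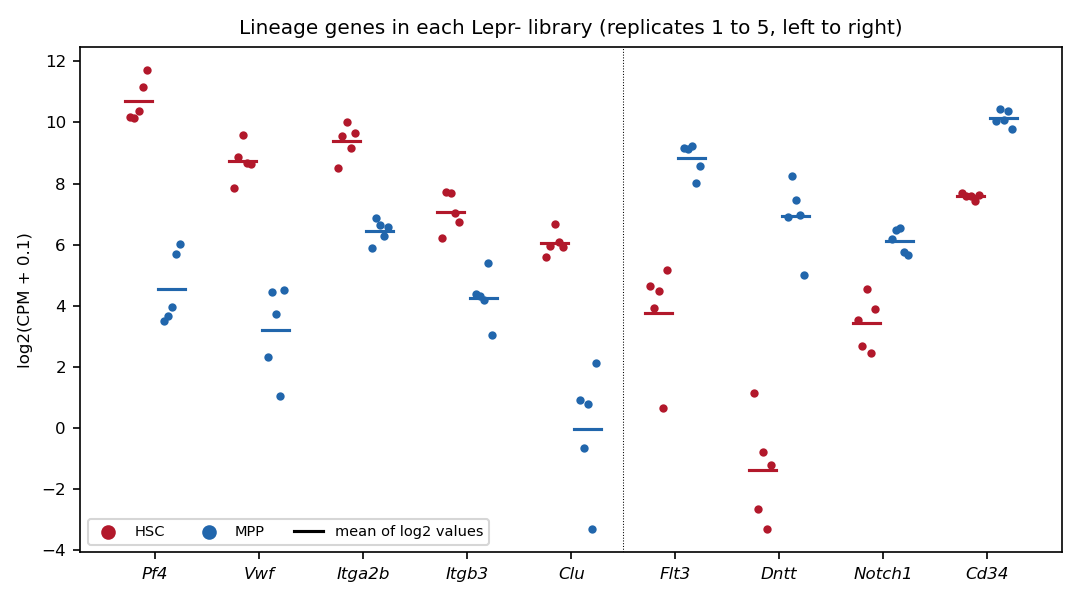
Lineage genes in the 10 Lepr- libraries, as log2(CPM + 0.1) on the y axis, with replicates 1 to 5 of HSC and MPP from left to right within a gene and bars at the mean of the log2 values. Pf4 spans 1145 to 3368 CPM in HSC and 11.3 to 64.3 CPM in MPP, and Dntt 0 to 2.09 against 32.4 to 307 CPM.

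Promoters of F2rl2 and Gp5 are shown as those with the smallest p among called genes of this list that hold the GATA motif in the 250 bases before the start site, to show where its letters lie. They are those 250 bases before the start site in RefSeq's annotation of GRCm38.p6, 5′ to 3′ on the gene's strand, with matches to AGATAA or TGATAA, on either strand, in capitals. F2rl2 lies at chr13:95696670-95696919, plus strand, and Gp5 at chr16:30310782-30311031, minus strand.
F2rl2: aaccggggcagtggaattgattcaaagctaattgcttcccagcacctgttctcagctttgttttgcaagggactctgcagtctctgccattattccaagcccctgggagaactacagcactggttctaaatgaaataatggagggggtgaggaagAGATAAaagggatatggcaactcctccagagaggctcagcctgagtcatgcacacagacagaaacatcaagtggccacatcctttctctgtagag
Gp5: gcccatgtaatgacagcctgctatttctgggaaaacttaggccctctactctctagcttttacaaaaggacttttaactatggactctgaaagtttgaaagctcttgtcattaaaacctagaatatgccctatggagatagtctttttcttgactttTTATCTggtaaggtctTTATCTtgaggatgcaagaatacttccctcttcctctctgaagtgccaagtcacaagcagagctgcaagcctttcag
F2rl2 has 1 match and Gp5 has 2, which do not overlap. In windows of 250 bases before to 50 after the start, 9 of the 24 listed genes with a promoter in the table held such a match (37.5%), among all promoters 19% and among those of genes tested 10.5%. Of the 11 called members with a promoter, 3 did (F2rl2, Gp5 and Pf4, the last only after its start site). An ETS motif, CCGGAAGT on either strand, was in 0 of the 24 and in 4.0% of all promoters. A match describes letters in the window and is not evidence of binding.

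Lymphoid priming genes that were called went the other way, with 1 exception. Of 29 tested members of 31, 13 were called lower in HSC and 1 higher, and the median difference was -1.80 (June -2.13, July -2.63). Dntt, the template-independent DNA polymerase of antigen receptor joining (chr19:41029275-41059525, plus strand), was at 2.09, 0.05898, 0.479, 0 and 0.3296 CPM in HSC and 120.2, 307, 176, 126 and 32.4 CPM in MPP. The highest HSC library lay more than 10 times below the lowest MPP library, and the log2 difference was -7.85 ± 1.22 (adjusted p = 0.000791). Flt3, the cytokine receptor that marks lymphoid-primed progenitors (chr5:147330741-147400489, minus strand), was at 24.9, 15.2, 22.1, 1.46 and 35.8 CPM in HSC and 569, 565, 594, 258 and 382 CPM in MPP (-4.57 ± 0.74, adjusted p = 0.00112). The groups were separate, and HSC replicate 4 was the lowest of all. Notch1, the receptor that directs T cell fate, was at 11.5, 6.37, 23.5, 5.397 and 14.7 against 73.3, 88.7, 92.4, 53.6 and 50.7 CPM, also without overlap (-2.54 ± 0.42).

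The other genes called lower were Wfdc17, Cd52, Lax1, Mn1, Sox4, Lsp1, Satb1, Ltb and Gimap6, from -4.99 to -1.25 on the log2 scale. Sox4 is a transcription factor needed early in B cell formation, but 54.6% of its exon bases overlap the exons of Gm26735, and reads of the pair cannot be told apart without strand. Satb1, a chromatin organiser of T cell genes, lost its call in 9 of the 10 fits without 1 Lepr- library, all but that without MPP replicate 4 (adjusted p up to 0.112). Lsp1 lost it in 6 and Gimap6 in 3, HSC replicates 2 and 4 and MPP replicate 2 being common to both (adjusted p up to 0.0712). Il7r, the interleukin-7 receptor of lymphoid progenitors, had 0 counts in HSC and 254 in MPP, where the libraries stood at 0.832, 3.37, 4.31, 0 and 0.433 CPM. Against a floor of 3 counts over the HSC group, its pooled counts were 73.2-fold lower in HSC, a ratio that leaves out the spread between pools. Il7r was not called in edgeR without the replicate block (adjusted p = 0.067), but was with the block (adjusted p = 0.0237), in DESeq2 (adjusted p = 0.0295) and in limma voom (adjusted p = 0.0291). The block called 15 members lower. Of all genes tested 1.51% were called lower, and 3.43% with the block. Mef2c, a factor shared by lymphoid and megakaryocytic cells, was the exception in direction: it was at 281 to 522 CPM in HSC and 126 to 204 CPM in MPP (0.97 ± 0.22, adjusted p = 0.016), a call lost without HSC replicate 3 or MPP replicate 5 (adjusted p up to 0.0598).

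RNA of mature lymphoid or dendritic cells was read beside these lists. The summed B and plasma cell markers were at 52.1 to 118 CPM in HSC and 155 to 318 CPM in MPP, without overlap. Of 16 such markers Sdc1 was called lower, Ighm was at 0.257 to 7.23 and 55.3 to 193 CPM (adjusted p = 0.203), Ms4a1 and Pax5 did not exceed 1.20 CPM, and Mzb1 had no count. T and NK markers summed to 116 to 243 against 156 to 268 CPM, with Cd8a and Ncr1 at 0. Of the 6 tested none was called by edgeR without the block (2 at an unadjusted p under 0.05, 1 called by DESeq2 and 2 by limma voom), and with the block the kinase gene Lck and the T cell receptor gene Trbc2 were called lower in HSC (adjusted p = 0.00917 and 0.0283). Trbc1, a T cell receptor gene outside the list that was chosen after its values were seen, was called lower (adjusted p = 0.00698). It had 2 counts in HSC and 1074 in MPP, where its libraries stood at 0.505 to 16.1 CPM. MPP over HSC was 464 per count sequenced (95% exact interval 128 to 3840.0, counting error only, without the spread between libraries). Dendritic markers summed to 159 to 251 against 412 to 864 CPM, with Flt3, a member of both lists, as their only call. Flt3 alone gave 1.46 to 35.8 and 258 to 594 CPM of these sums. The part of such cells in the lymphoid result was not tested.

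Granulocyte and monocyte progenitor genes that were called were lower in HSC. Of 22 tested members of 23, 6 were called lower and 0 higher (median -1.13; June -1.14, July -1.53), and all 6 kept their calls in each fit without 1 Lepr- library. Spi1, which encodes the transcription factor PU.1 (chr2:91082390-91115756, plus strand), was at 91.6, 73.3, 47.4, 67.7 and 76.1 CPM in HSC and 187, 225, 175, 200.1 and 170.5 CPM in MPP. Its groups were narrow and separate (-1.43 ± 0.17, adjusted p = 9.84e-05). Cebpa, the factor that opens granulocyte fate, was at 0.989 to 5.57 CPM in HSC and 16.5 to 35.8 CPM in MPP (-2.99 ± 0.53, adjusted p = 0.00254). Csf3r, the G-CSF receptor, was at 11.5 to 55.8 against 76.2 to 226 CPM (-2.54 ± 0.53), and Emb, Plac8 and Hk3 had differences of -2.37 ± 0.26, -2.26 ± 0.39 and -2.48 ± 0.399. Mpo, the granule peroxidase, varied within groups: 11.1, 117, 0.884, 25.1 and 12.7 CPM in HSC against 45.9, 237, 129, 161 and 78.9 CPM in MPP. Its ranges overlapped through HSC replicate 2, and it was not called (-1.96 ± 0.94, adjusted p = 0.402). The block called 8 members lower. Of all genes tested 1.51% were called lower, and 3.43% with the block. Mature neutrophil markers summed to 6.63 to 307 CPM in HSC and 49.99 to 316 CPM in MPP, and monocyte markers to 471 to 683 and 386 to 805 CPM, with 0 of 8 and 0 of 15 tested called by edgeR (1 each at an unadjusted p under 0.05, 0 by DESeq2 and limma voom).

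Erythroid genes gave no call in edgeR, where 2.73% of all genes tested were called. A list of this size could hold 0 calls at that share. Of 26 tested members of 28, 0 were called in either direction by edgeR, with or without the block (2 at an unadjusted p under 0.05, 0 by DESeq2 and 2 by limma voom), and the median was -0.19. Gata1, the transcription factor that drives red cell and megakaryocyte formation, was at 92.3, 240.2, 234, 222 and 133 CPM in HSC and 17.4, 42.6, 55.3, 113 and 73.4 CPM in MPP. The ranges met, as MPP replicate 4 lay above HSC replicate 1 (1.61 ± 0.59, adjusted p = 0.21). Gata1 was higher in HSC in 5 of 5 pairs. It was called by limma voom (adjusted p = 0.0191) but not by DESeq2 (adjusted p = 0.0814). In Lepr+ cells Gata1 differed by 3.245 ± 0.634 and was called by edgeR (adjusted p = 0.0217). Epor was at 42.9 to 71.8 and 12.8 to 61.3 CPM, where MPP replicate 5 alone reached the HSC levels. It was called higher by limma voom (adjusted p = 0.0143) but not by DESeq2 (adjusted p = 0.371). Klf1 was at 22.9 to 111 and 21.6 to 115 CPM.

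Among transcription factors of stem cells the 2 directions were mixed. Of 26 tested members of 27, 5 were called higher in HSC and 4 lower, where 1.22% and 1.51% of all genes tested were. The median was 0.20. Hlf, a factor used as a mark of the most primitive cells (chr11:90336536-90390895, minus strand), was at 209, 155, 114, 125 and 165 CPM in HSC and 478, 405, 388, 335 and 446 CPM in MPP. Every MPP library was above every HSC library, a difference of -1.42 ± 0.17 (adjusted p = 7.41e-05). Nkx2-3, a homeobox gene, was lower too, at 40.8, 25.5, 23.2, 28.4 and 27.1 against 47.9, 47.6, 44.6, 60.5 and 63.6 CPM (-0.86 ± 0.200, adjusted p = 0.0184). Gata2, a zinc finger factor of stem cells, was at 419, 555, 473, 559.9 and 478 CPM in HSC against 206, 246, 225, 311 and 316 CPM in MPP, with no overlap (0.93 ± 0.15, adjusted p = 0.00112). Gata2 is also a mast cell gene. Mast cell and basophil markers, Gata2 among them, summed to 445 to 572 CPM in HSC and 211 to 386 CPM in MPP. Gata2 alone gave 419 to 559.9 and 206 to 316 CPM of these sums and was the only call. Of 6 tested markers 2 had a positive and 4 a negative difference (median -1.26). Cma1, Tpsb2 and Tpsab1 of that list had no count in HSC, and the part of such cells in the result was not tested. Gfi1b, Fli1 and Tcf15 were called higher too (0.98 ± 0.22, 0.99 ± 0.21 and 1.66 ± 0.399), and Hoxa9 and Lyl1 lower (-1.07 ± 0.28 and -0.82 ± 0.22).

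The falls among these factors depended on single libraries. Without HSC replicate 3 only 1 of the 4 kept its call, that of Hlf, without HSC replicate 1 there were still 4, and without any other Lepr- library 2. The rises numbered 3 to 6 in the same fits, 3 without MPP replicate 1. Mecom, a factor required for stem cell maintenance, was at 97.96, 30.7, 82.8, 17.5 and 49.4 CPM in HSC and 92.4, 106, 87.2, 29.4 and 97.1 CPM in MPP. Its spread within a group exceeded the difference (-0.56 ± 0.45, adjusted p = 0.736). Meis1, Prdm16, Runx1 and Tal1 were not called, with differences of 0.19, -0.59, 0.501 and 0.42, and Sox17 had no count in a Lepr- library. The block called 8 higher and 5 lower, where it called 4.07% and 3.43% of all genes tested.

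Surface and marker genes of stem cells were mixed in the same way: of 34 tested, 4 were called higher, 3 lower, and the median was 0.36. Of all genes tested 1.22% were called higher and 1.51% lower, and 4.07% and 3.43% with the block. Cd34, a sialomucin whose absence marks long-term mouse HSC (chr1:194938819-194961279, plus strand), was at 209, 191, 191, 173 and 196 CPM in HSC and 1055, 1378, 1080.2, 1328 and 888 CPM in MPP. The lowest MPP library lay above 4 times the highest HSC library, and the difference of -2.58 ± 0.18 had the smallest adjusted p of the named genes, 1.02e-07. Vldlr, a lipoprotein receptor, and the tetraspanin Cd82 were lower as well (-2.75 ± 0.41 and -1.66 ± 0.25). Ctnnal1, an alpha-catulin used as a reporter of HSC, was at 56.4 to 73.8 CPM in HSC and 4.95 to 18.1 CPM in MPP (2.25 ± 0.500, adjusted p = 0.0146). The sulfotransferase Sult1a1 rose by 2.77 ± 0.52. Procr (EPCR) was at 47.7, 29.3, 19.2, 34.4 and 23.8 CPM in HSC and 55.8, 37.99, 56.7, 35.6 and 44.01 CPM in MPP, which overlap (-0.57 ± 0.26, adjusted p = 0.345). Fgd5, Tek and Abcg2 were not called (-0.48, 0.78 and 0.53). With the block 6 members were called higher and 4 lower, Abcg2 and Trpc6 (adjusted p = 0.0334 and 0.0198) being added to the former and Alcam (adjusted p = 0.0438) to the latter.

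Genes of DNA replication and of mitosis that were called were all higher in HSC. Of 34 replication and S phase genes, all tested, 10 were called higher and 0 lower (median 0.74; June 0.73, July 0.77), and all 34 had a positive difference. Of 30 genes of G2 and mitosis, all tested, 13 were called higher and 0 lower (median 1.39; June 1.41, July 1.05), and all 30 were positive. The summed level was 5599 to 8300 CPM in HSC and 3923 to 4810 CPM in MPP for the first list, and 2723 to 4585 against 1096 to 1476 CPM for the second. Neither sum overlapped between groups. With the block 16 members of each were called higher. Of all genes tested 1.22% were called higher, and 4.07% with the block.

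Tk1, the thymidine kinase of the S phase salvage pathway, was at 138, 182, 125, 232 and 204 CPM in HSC and 45.4, 26.3, 43.8, 47.97 and 64.8 CPM in MPP (1.95 ± 0.29, adjusted p = 0.000531). Tyms, thymidylate synthase, was at 239.9, 248, 198, 298 and 326 against 90.9, 62.4, 74.4, 112 and 123 CPM (1.501 ± 0.23, adjusted p = 0.000695). Both genes were higher in every HSC library. Cdc45, part of the replicative helicase, was at 74.3, 82.04, 95.3, 131 and 61.3 against 31.4, 31.3, 31.2, 23.99 and 30.4 CPM (1.58 ± 0.21), and Prim1, the primase subunit, at 136, 188, 132, 141 and 159 against 70.6, 55.3, 63.97, 111 and 60.97 CPM (1.06 ± 0.21). Mcm5, another helicase subunit, had the smallest of the 10 rises, at 381, 531, 626, 633 and 435 against 287, 293, 337, 249 and 362 CPM (0.77 ± 0.18, adjusted p = 0.0195). Rrm2, Gins1, Gins2, E2f1 and Ccne2 rose by 1.07 to 1.75, with 67.3% of the exon bases of Gins2 in exons of Gse1. Pcna, the clamp of DNA polymerases, was at 236 to 368 and 138 to 263 CPM and was called with the block alone (0.74 ± 0.28, adjusted p = 0.234, with the block 0.00257).

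Aurkb, the kinase of the chromosomal passenger complex (chr11:69045647-69051664, plus strand), was at 128, 163, 182, 172 and 140.3 CPM in HSC and 36.8, 22.98, 34.2, 34.9 and 35.7 CPM in MPP. The nearest libraries lay more than 3 times apart (2.25 ± 0.23, adjusted p = 2.37e-05). Its partner Birc5 (survivin) was at 152, 141, 141, 177 and 178 against 39.1, 32.7, 35.8, 80.2 and 48.7 CPM (1.74 ± 0.24), and Cdca8 (borealin), of the same complex, at 130.3, 136, 201, 118 and 113 against 40.03, 48.5, 50.1, 39.2 and 54.04 CPM (1.59 ± 0.25). Tacc3, a spindle protein, was at 123, 141, 152, 87.7 and 109.7 against 39.9, 39.9, 49.03, 35.6 and 42.6 CPM (1.57 ± 0.21, adjusted p = 0.000176). All 4 genes were separate between groups. Cdk1, the mitotic kinase, rose by 1.62 ± 0.26 (adjusted p = 0.000877), the ubiquitin enzyme Ube2c by 2.08 ± 0.39 and Cdc20 by 1.13 ± 0.21. Mki67, the usual proliferation antigen, was at 123, 37.5, 292, 10.2 and 54.96 CPM in HSC and 44.8, 42.01, 59.5, 3.696 and 31.1 CPM in MPP. HSC replicate 4 was below 4 of the MPP libraries, and Mki67 was not called (1.51 ± 0.96, adjusted p = 0.622); Top2a and Cenpf, also long mitotic transcripts of wide spread, were not called either (1.24 ± 0.74 and 1.05 ± 0.96).

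**Figure D3:**
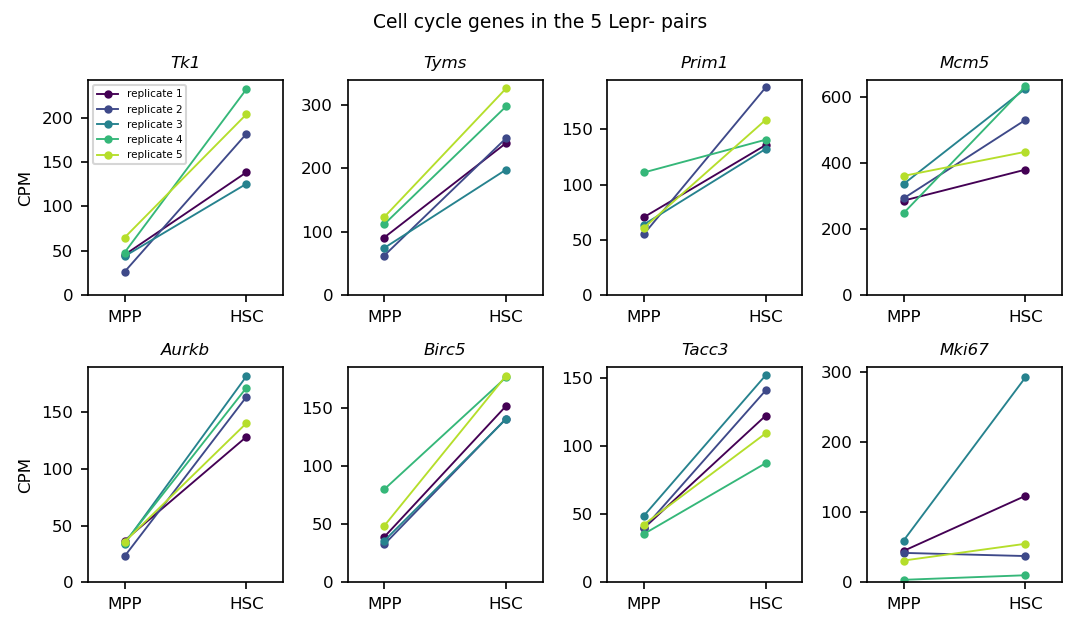
Each panel shows 1 cell cycle gene, with CPM on the y axis (from 0) and a line from the MPP to the HSC library of each of the 5 replicates. Tk1, Tyms, Prim1, Mcm5, Aurkb, Birc5 and Tacc3 are higher in HSC in 5 of 5 pairs and Mki67 in 4 of 5.

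The count of S phase calls depended on single libraries. It was 10 without HSC replicate 1 and 5 to 8 without any other, 5 being reached without HSC replicate 4, MPP replicate 1 or MPP replicate 2, and 6 without HSC replicates 2 or 3 or MPP replicate 5. In those fits Mcm5 lost its call in 5 of 10 (adjusted p up to 0.0705), while Cdc45, Tk1, Tyms, Prim1 and Rrm2 kept theirs in all 10. Mitotic calls numbered 10 to 13, and Ccnb2 lost its call in all 10 fits (adjusted p up to 0.169), Ccnb1 and Cks2 in 6 each, MPP replicates 1 to 3 and HSC replicate 4 being common to both. HSC replicate 3, with the highest S phase and mitotic sums (8300 and 4585 CPM), had the lowest sum of ribosomal protein genes. Summed ribosomal protein genes, a further measure, ran from 37549 to 117097 CPM in HSC and 43180 to 77037 CPM in MPP. Of 78 tested 0 were called by edgeR (4 at an unadjusted p under 0.05, 3 with the block, 0 by DESeq2 and limma voom), while 76 had a positive difference (median 0.47). Their part in the cell cycle result was not tested.

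Promoters of Mcm5, Cdk1, Ube2c and Cdc20 are shown as those of the called members with the smallest p that hold, in the 250 bases before the start site, an E2F site (S phase list) or both a CHR element and a CCAAT box (mitotic list). Mcm5 was the only called S phase gene with an E2F site there. Start sites are those of RefSeq (GRCm38.p6), and the sequences run 5′ to 3′ on the gene's strand. In Mcm5 (chr8:75109259-75109508, plus strand) capitals mark an E2F site (TTTCCCGC, TTTGCCGC, TTTCGCGC or TTTGGCGC on either strand); in Cdk1 (chr10:69352913-69353162, minus strand), Ube2c (chr2:164769679-164769928, plus strand) and Cdc20 (chr4:118437344-118437593, minus strand) they mark a CHR element (TTTGAA or TTCGAA) or a CCAAT box (CCAAT), on either strand.
Mcm5: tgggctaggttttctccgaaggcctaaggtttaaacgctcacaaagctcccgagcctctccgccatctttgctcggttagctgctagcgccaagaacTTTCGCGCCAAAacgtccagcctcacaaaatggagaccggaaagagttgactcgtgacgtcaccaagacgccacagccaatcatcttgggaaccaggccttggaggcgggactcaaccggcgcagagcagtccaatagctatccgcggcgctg
Cdk1: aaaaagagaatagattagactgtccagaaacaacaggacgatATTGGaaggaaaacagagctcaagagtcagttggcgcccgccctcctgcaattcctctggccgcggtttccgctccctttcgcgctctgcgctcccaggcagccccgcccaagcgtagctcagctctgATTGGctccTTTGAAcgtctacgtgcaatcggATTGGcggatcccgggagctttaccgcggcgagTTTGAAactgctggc
Ube2c: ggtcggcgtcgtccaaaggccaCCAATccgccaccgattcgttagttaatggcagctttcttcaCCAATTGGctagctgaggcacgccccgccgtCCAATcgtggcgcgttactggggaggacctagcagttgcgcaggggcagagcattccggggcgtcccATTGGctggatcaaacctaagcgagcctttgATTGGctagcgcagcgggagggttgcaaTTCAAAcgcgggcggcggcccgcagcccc
Cdc20: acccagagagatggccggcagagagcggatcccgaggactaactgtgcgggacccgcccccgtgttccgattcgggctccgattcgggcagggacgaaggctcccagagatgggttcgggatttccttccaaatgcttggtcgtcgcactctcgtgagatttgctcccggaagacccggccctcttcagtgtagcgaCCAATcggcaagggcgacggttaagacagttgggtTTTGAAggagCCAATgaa
The 2 E2F matches of Mcm5 lie on opposite strands and overlap. Cdk1 has 2 CHR and 3 CCAAT matches, Ube2c 1 and 6, of which 1 pair of CCAAT boxes overlaps on opposite strands, and Cdc20 1 and 2. In windows of 300 bases around the start, a CHR match was in 20 of the 26 mitotic genes with a promoter (76.9%), in 19.4% of all 27025 promoters and in 14.1% of those of genes tested. A CCAAT box was in 22 of the 26 (84.6%), and in 37.9% and 38.3%. Of the 12 called mitotic genes with a promoter, 8 held a CHR match. An E2F match was in 10 of the 29 S phase genes with a promoter (34.5%), in 2.32% of all promoters and 4.1% of those of genes tested, and of the called ones Mcm5 alone held it.

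Regulators of G1 gave 1 call in each direction among 18 tested members of 20, where 2.73% of all genes tested were called. Ccnd3, a D-type cyclin, was called higher, at 347, 458, 458, 557 and 390.3 CPM in HSC and 219, 252, 251, 251 and 252 CPM in MPP (0.85 ± 0.15, adjusted p = 0.00275). Tob1, an antiproliferative factor, was called lower, at 13.4, 11.6, 8.91, 8.995 and 18.2 against 26.9, 25.2, 29.6, 43.5 and 33.6 CPM (-1.38 ± 0.31, adjusted p = 0.0166). Neither gene overlapped between groups. Tob1 lost its call without HSC replicate 3 or 4 (adjusted p up to 0.0567). Cdkn1c (p57), the CDK inhibitor associated with stem cell quiescence, was at 8.104, 11.1, 7.11, 10.6 and 8.24 CPM in HSC and 4.81, 4.78, 4.72, 4.67 and 6.35 CPM in MPP. The groups did not overlap, yet it was not called (0.84 ± 0.32, adjusted p = 0.227, with the block 0.0957), and 30.7% of its exon bases lie in exons of Gm44732. Cdk6 was at 352 to 765 and 282 to 448 CPM (0.55 ± 0.27, adjusted p = 0.42). With the block 4 members were called higher, where 4.07% of all genes tested were: Ccnd3, Ccnd2, Cdkn2d and Rbl1.

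Cytokine receptors were lower in HSC where they were called. Of all genes tested 1.51% were called lower, and 3.43% with the block. Of 32 tested, 8 were called lower and 0 higher (median -0.85; June -0.69, July -0.91), and 13 lower with the block. Apart from Flt3 and Csf3r these were the interferon receptor chains Ifnar2, Ifngr1 and Ifngr2, the interleukin receptor chains Il2rg and Il10rb, and Il1r1. Ifnar2 was at 59.6, 63.2, 67.6, 61.6 and 63.9 CPM in HSC and 122, 148, 131, 116 and 111 CPM in MPP. The 5 values of each group lay close together and apart from the other group (-0.99 ± 0.17, adjusted p = 0.00214). Ifngr2 was at 9.73 to 23 against 31.8 to 58.4 CPM (-1.34 ± 0.28) and Ifngr1 at 90.3 to 126 against 171 to 305 CPM (-0.904 ± 0.200). Il2rg, the common gamma chain, was at 34.5, 21.4, 23.1, 22.2 and 35.4 against 70.9, 75.98, 76.9, 49.3 and 65.1 CPM (-1.31 ± 0.203, adjusted p = 0.000765), with 30.5% of its exon bases in exons of Gm20489. Without HSC replicate 2 or MPP replicate 2 or 3 both Il1r1 and Il10rb lost their calls, Il1r1 also without replicate 1 of either group and Il10rb also without HSC replicates 3 or 4 or MPP replicate 4 (adjusted p up to 0.0669 and 0.0888).

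Genes induced by interferons that were called were lower in HSC as well. Of all genes tested 1.51% were called lower, and 3.43% with the block. Of 31 interferon gamma response genes, all tested, 5 were called lower and 0 higher (median -0.67), in the full fit and in each of the 10 fits without 1 Lepr- library. Irgm1, a GTPase of cell-autonomous immunity, was at 135, 104, 119, 124 and 139 CPM in HSC and 216, 223, 225, 202 and 241 CPM in MPP (-0.83 ± 0.13, adjusted p = 0.000965). Irf9, the DNA-binding part of ISGF3, was at 96.04, 69.8, 76.3, 100.3 and 60.6 against 164, 149, 156, 157 and 149.5 CPM (-0.94 ± 0.17), and Irf1 at 87.2, 66.1, 62.6, 72.99 and 81.5 against 142, 136, 181, 119 and 128 CPM (-0.93 ± 0.18). All 3 genes were separate between groups. Tap2, a peptide transporter subunit, and Tgtp1 were the other calls (-0.93 ± 0.19 and -1.299 ± 0.25), the latter with a near-identical copy, Tgtp2, between which reads can be split (-0.42). Of 30 type I interferon response genes 3 were called lower, 0 higher and 29 had a negative difference (median -0.97; June -0.92, July -1.31). Rtp4 was at 74.5, 45.9, 35.4, 83.3 and 84.05 CPM in HSC and 170.2, 169, 160.2, 204 and 209 CPM in MPP (-1.498 ± 0.304, adjusted p = 0.00752), and Irf7 and Xaf1 were the others (-1.18 ± 0.28 and -1.07 ± 0.28). The replicate block called 11 of the 30 lower, among them Isg15 (-1.07 ± 0.31, adjusted p = 0.0764, with the block 0.0113). The count of 3 was 1 without HSC replicate 2 or MPP replicate 1, and 2 or 3 without each other Lepr- library.

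Among 10 tested MHC class II presentation genes, H2-Ob, a chain of the peptide loading modulator H2-O, was at 19.7, 16.2, 16.3, 26.1 and 12.4 CPM in HSC and 118, 111, 88.9, 77.3 and 72.4 CPM in MPP (-2.37 ± 0.36, adjusted p = 0.000765). H2-Ab1 was the other call, at 57.4 to 75.8 against 93.8 to 117 CPM (-0.699 ± 0.18), lost in 9 of the 10 fits without 1 Lepr- library (all but that without MPP replicate 5, adjusted p up to 0.121). The block called 4 lower. Of all genes tested 1.51% were called lower, and 3.43% with the block. Of 9 class I genes 0 were called by edgeR (2 at an unadjusted p under 0.05, 0 by DESeq2 and limma voom); H2-K1 was at 2209.8 to 3327 and 2724 to 2994 CPM, and H2-Q7, called higher by the block (adjusted p = 0.00698), at 449 to 753 and 344 to 427 CPM. Class I genes share near-identical stretches, so their counts are uncertain. Of 8 GIMAP GTPases of lymphoid cells 2 were called lower, Gimap1 (-0.74 ± 0.14, with 42.5% of its exon bases in exons of other genes) and Gimap6 (-1.26 ± 0.28), 1 to 4 without single Lepr- libraries.

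Receptors of homing and adhesion were called in 4 of 27 cases, where 2.73% of all genes tested were called. Besides Itgb3 they included Selplg, the selectin ligand PSGL-1, at 185, 149, 167, 139 and 139 CPM in HSC against 335, 486, 393, 267 and 308 CPM in MPP (-1.203 ± 0.22, adjusted p = 0.00332), and Itgb7, an integrin chain of gut homing, at 13.7, 23.9, 14.6, 13.02 and 15.4 against 79.9, 96.2, 70.9, 36.4 and 57.1 CPM (-2.08 ± 0.41). Neither overlapped between groups. Cxcr4, the receptor that keeps stem cells in the marrow, was at 8.41 to 29.6 and 9.84 to 15.9 CPM (0.52 ± 0.42, adjusted p = 0.743).

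The remaining lists had 0 to 2 calls each, where 2.73% of all genes tested were called. In 20 tested imprinted growth genes H19 was called higher (adjusted p = 0.015). The HSC libraries were at 2.26, 1.47, 1.73, 1.71 and 0.165 CPM with 161 counts in all, and the MPP libraries had 0. Against a floor of 3 counts over the MPP group, its pooled counts were 62.1-fold higher in HSC, without the spread between pools. In 20 glycolysis genes the lactate dehydrogenase subunits moved apart, Ldha higher (1.04 ± 0.27, adjusted p = 0.0398) and Ldhb lower (-0.86 ± 0.195, adjusted p = 0.0166), and their calls were lost in 8 (all but HSC replicate 1 and MPP replicate 4) and 3 (HSC replicate 3, MPP replicates 1 and 2) of the 10 fits without 1 Lepr- library (adjusted p up to 0.131 and 0.0656). Of 15 tested Hox genes Hoxa9 was called lower, lost in 8 of those fits (all but HSC replicates 1 and 2, adjusted p up to 0.144), and Hoxb5, a mark of long-term HSC, was at 3.61, 4.54, 3.499, 4.71 and 13.9 CPM in HSC and 2.69, 0.91, 1.04, 1.39 and 3.103 CPM in MPP. The groups of Hoxb5 did not overlap, but it was not called (1.73 ± 0.57, adjusted p = 0.142). Of 26 chromatin regulators Kdm5b and Satb1 were called lower (-0.93 ± 0.24 and -3.66 ± 0.95). Kdm5b, a histone demethylase, lost its call in 8 of those fits, all but the ones without HSC replicate 3 and MPP replicate 4 (adjusted p up to 0.115), and Satb1 in 9, as given above. Of 27 cholesterol genes Nceh1 was called lower, and of 24 tested immediate early genes Dusp2 (-1.21 ± 0.18 and -0.91 ± 0.19). Markers of marrow stroma summed to 25.4 to 293 CPM in HSC and 57.9 to 103 CPM in MPP, with Ebf3 at 0, and endothelial markers to 333 to 390 and 299 to 410 CPM. Of 19 and 15 tested, 0 were called by edgeR without the block (3 and 7 at an unadjusted p under 0.05, 2 and 2 by DESeq2, 1 and 0 by limma voom). With the block Pdgfrb of the stromal list was called lower (adjusted p = 0.0497) and, of the endothelial list, Tie1 higher and Egfl7 lower (adjusted p = 0.0486 and 0.0283).

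**Figure D4:**
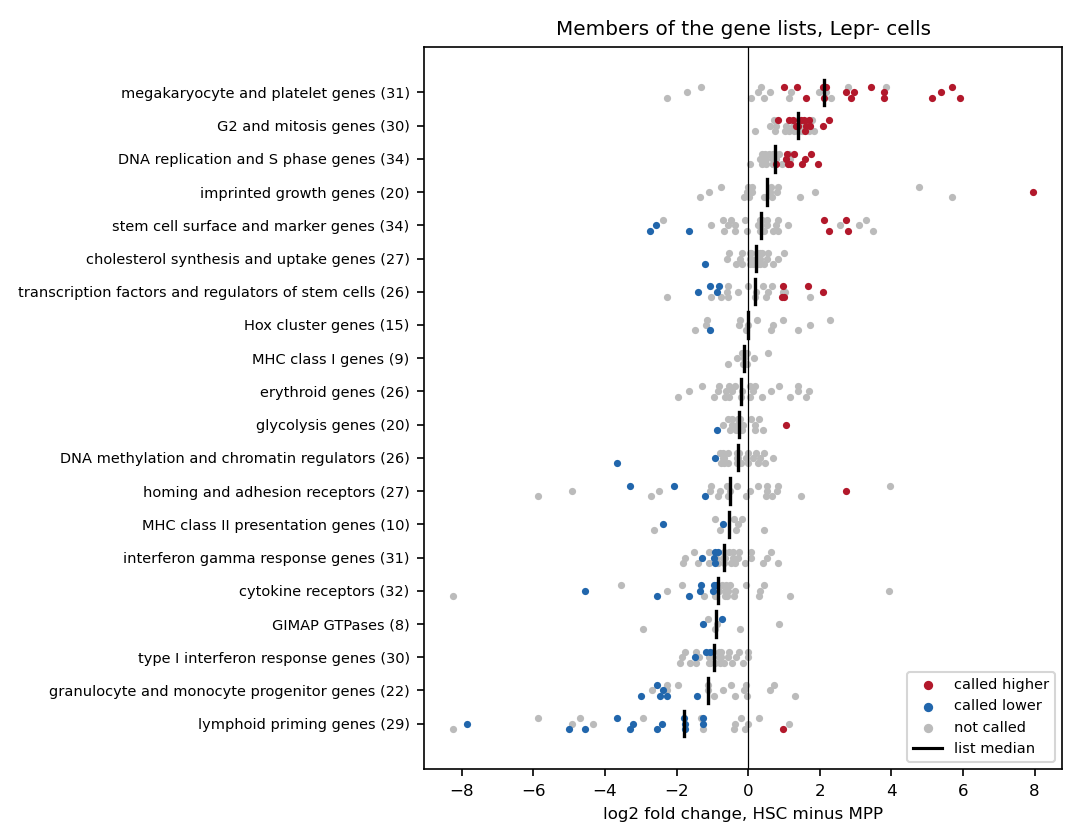
Log2 fold changes, HSC minus MPP, of every tested member of 20 gene lists, 1 row per list with its number of tested members, points coloured by call and a bar at the list median. Platelet and cell cycle lists lie to the right of 0 (medians 2.13, 1.39 and 0.74) and lymphoid and myeloid lists to the left (-1.80 and -1.13).

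Outside the lists, the rule of largest differences named genes of low level with a wide error. Pde10a, a cyclic nucleotide phosphodiesterase, was at 22.3, 30.6, 68.6, 25.7 and 35.8 CPM in HSC and 0.0378, 0.0379, 0.409, 0 and 0.289 CPM in MPP (7.801 ± 1.301, adjusted p = 0.0014). Slc14a2, a urea transporter, had 478 counts in HSC and 0 in MPP, but only 0.0824 CPM in HSC replicate 5 (adjusted p = 0.039). Against a floor of 3 counts over the MPP group, its pooled counts were 184-fold higher in HSC, without the spread between pools. F10, coagulation factor X, was at 8.85, 35.7, 34.96, 32.5 and 8.405 against 0, 0, 0.377, 1.26 and 0.0722 CPM (6.18 ± 1.48). Gpx8, Ltbp1, Amotl2, Gkn3 and Lhfp had rises of 4.83 to 6.35, and in the fits without 1 Lepr- library the calls of Slc14a2 and Ltbp1 were lost in 9 (all but those without HSC replicate 5 and HSC replicate 4), Gkn3 in 8 (all but HSC replicate 1 and MPP replicate 1) and F10 in 7 (all but HSC replicates 1 and 5 and MPP replicate 4). Amotl2 lost its call without MPP replicate 1 or 2 and Lhfp without MPP replicate 1 (adjusted p up to 0.129 over these genes). Pde10a and Gpx8 kept theirs in all 10.

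On the other side, Cd53, a leukocyte tetraspanin, was at 7.497, 19.2, 2.36, 14.05 and 7.66 CPM in HSC and 115, 155, 103, 192 and 158 CPM in MPP (-3.84 ± 0.502, adjusted p = 0.000176). Mmp2, a matrix protease, was at 5.64, 3.24, 4.13, 0 and 0.412 against 36.1, 59.9, 40.3, 16.1 and 61.5 CPM (-3.96 ± 0.74), and Ccl9, a chemokine, at 0.844, 3.42, 0.405, 8.05 and 3.13 against 32.4, 42.8, 33.2, 64.4 and 29.4 CPM (-3.69 ± 0.76). All 3 were separate between groups and called in each of the 10 fits without 1 Lepr- library. Cd33, a sialic acid receptor of myeloid cells, had counts in 1 HSC library alone (replicate 1, 0.878 CPM) and was at 13.3, 16.3, 12.2, 8.16 and 13.9 CPM in MPP (-6.002 ± 1.46, adjusted p = 0.0262, lost in 8 of the 10 fits). Bpifc, Scube3, Itgb5 and Sstr2 had differences of -5.15 to -4.35, with calls lost in 9, 7, 2 and 10 fits. Itgb5 lost its call without HSC replicate 2 or 3, Scube3 without any but HSC replicate 1 or MPP replicates 4 or 5, Bpifc without any but HSC replicate 1, and Cd33 without any but HSC replicate 1 or MPP replicate 4 (adjusted p up to 0.117 over the 5 genes).

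The same contrast was read in cells with surface Lepr, whose libraries came from the same pools of mice. Stromal markers summed to 46.3 to 321 CPM in Lepr+ HSC and 212 to 4407 CPM in Lepr+ MPP. Endothelial markers were at 432 to 561 and 412 to 1077 CPM, and B and plasma cell markers at 57.7 to 668 and 109 to 4588 CPM. In Lepr- MPP the same lists reached at most 103, 410 and 318 CPM. The part of such cells in the Lepr+ contrast was not tested. Lepr+ HSC against Lepr+ MPP gave 77 called genes (0.466%), 71 of them called in Lepr- cells in the same direction, which is 92.2% of the 77 and 15.7% of the 451. Of the 201 genes called higher in Lepr- HSC, 196 had a positive difference in Lepr+ cells (median 1.04) and 38 were called. Of the 250 called lower, 242 had a negative one (median -0.76) and 33 were called. Since these genes were chosen by their Lepr- values, smaller values in the other contrast are no measure of a difference. For the difference itself 0 of 16509 genes were called by edgeR (0%; smallest adjusted p 0.793, with 529 genes, 3.2%, at an unadjusted p under 0.05), 0 by limma voom and 19 by DESeq2.

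Pf4, Vwf, Itga2b, Cd34, Flt3 and Dntt had the same sign in Lepr+ cells, but not every gene above did. Serpine2, called higher in the platelet list, differed by 3.42 ± 0.74 in Lepr- and -0.43 ± 0.67 in Lepr+ cells. Trbc1 differed by -8.16 ± 1.64 and 1.02 ± 1.37, with 7 counts in Lepr+ HSC and 2 in Lepr+ MPP. The difference between contrasts was called for both by DESeq2 (adjusted p = 0.027 and 0.0399), not by edgeR (adjusted p = 0.886 and 0.793). Pf4 differed by 3.96 ± 0.63 in Lepr+ cells (adjusted p = 0.00651), Vwf by 3.79 ± 0.52 and Itga2b by 1.64 ± 0.37 (adjusted p = 0.0551), and the platelet list had a median of 1.27 with 5 members called. Cd34 differed by -1.995 ± 0.18 (adjusted p = 6.64e-06), Flt3 by -3.95 ± 0.72 and Dntt by -4.03 ± 1.05 (adjusted p = 0.113), and the lymphoid list had a median of -0.86 with 5 called lower. The S phase and mitotic medians were 0.72 and 0.93 with 5 and 6 called higher, Aurkb differing by 1.48 ± 0.22 and Cdc45 by 1.49 ± 0.21. Those of the type I and gamma interferon lists were -0.55 and -0.19, with 0 called.

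The 6 genes with the smallest p of the difference between contrasts were named by rule. Nceh1, a cholesterol ester hydrolase, was lower in Lepr- HSC at 102, 81.5, 54.7, 66.8 and 50.3 against 173, 148, 162, 175 and 163 CPM in MPP (-1.21 ± 0.18, adjusted p = 0.000542), and its difference in Lepr+ cells was 0.01 ± 0.18 (unadjusted p of the difference 9.61e-05). Nkx2-3 differed by -0.86 ± 0.200 in Lepr- and 0.38 ± 0.198 in Lepr+ cells, and Rabgap1l, a Rab regulator, by 0.79 ± 0.17 and -0.24 ± 0.17. Gpx8, an ER peroxidase, differed by 5.77 ± 1.16 and -0.68 ± 0.94, and Plpp3, a lipid phosphatase, by 0.73 ± 0.42 and -1.93 ± 0.43. Srpx had 22 counts in HSC and 1 in MPP of the Lepr- libraries (ratio 25.4 per count sequenced, 95% exact interval 4.11 to 1050.0, counting error only). None of the 6 passed edgeR's adjusted test of the difference (adjusted p = 0.793 for each), whereas DESeq2 called all but Srpx (adjusted p from 0.000579 for Gpx8 to 0.019 for Nkx2-3 and Rabgap1l, and 0.115 for Srpx). The call of a difference from Lepr+ cells thus depends on the tool.

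**Figure D5:**
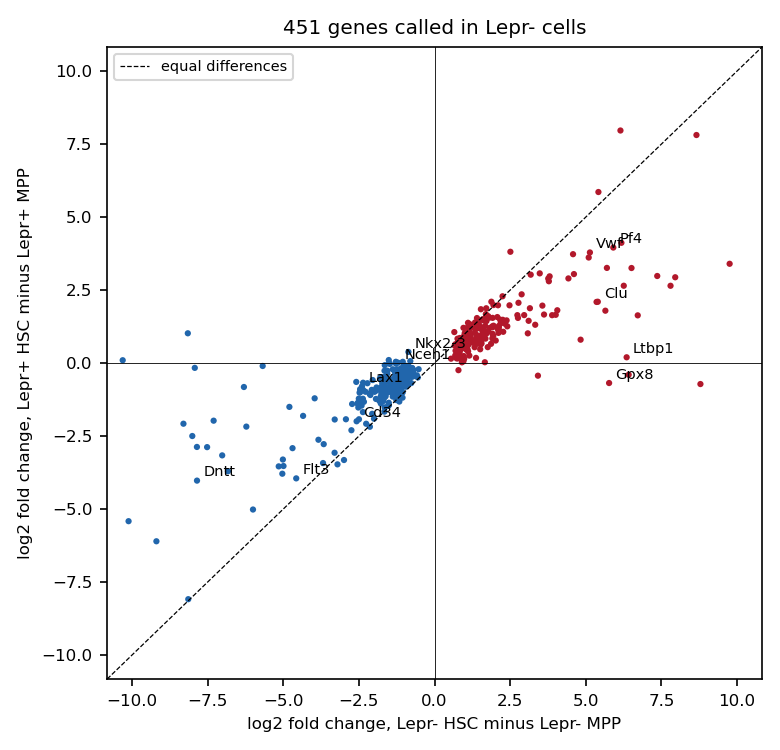
The 451 genes called in Lepr- cells, with the log2 fold change HSC minus MPP of Lepr- cells on the x axis and of Lepr+ cells on the y axis; the dashed line marks equal differences. Of the 201 genes right of 0, 196 lie above 0 on the y axis, and of the 250 left of 0, 242 lie below it.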

How the data were processed

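RNA of sorted Lepr- HSC and MPP was sequenced in 5 libraries per group. The deposited values are raw counts per gene, made by the authors; the tools in the submitters' processing notes are STAR 2.7.1a and HTSeq 0.11.2, after FastQC 0.11.8 and cutadapt 2.1, with DESeq2, on GRCm38. The mode of counting is not given in the sources used here, the libraries were non-stranded per the series text, and a label of ribosomal RNA depletion has no protocol behind it. Reads without a gene (22.06% to 36.76% of an HSC and 22.17% to 32.21% of an MPP library) stayed out of library sizes and tests. Of 55573 gene ids, 55480 matched GENCODE M21.

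All 20 libraries were fitted by group in edgeR 4.0.16 (R 4.3.3; TMM, genes with at least 10 counts in enough libraries and 15 in all, robust quasi-likelihood F test, two-sided, Benjamini-Hochberg over 16509 genes), with DESeq2 1.42.0, limma voom 3.58.1, RLE factors, other filters, fewer libraries and a replicate block as alternatives. On simulated data of this comparison (50 genes per size) the test called 22 of 50 genes at a log2 difference of -2, 17 of 50 at 2, 2 of 50 at -1 and 2 of 50 at 1, and 1 of 15680 unchanged genes. A number marks 1 pool of 2 mice from which all gates were sorted, per the series text, with 1 date per number in the file names. Deviations from the group means correlated at 0.016 to 0.476 for the same number and at -0.413 to 0.251 for different numbers, and no 2 libraries agreed within sampling noise (chi-square per degree of freedom at least 29.8).

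Named genes were the 12 largest rises and falls among called genes whose higher group averaged 5 CPM or more, with 1 sign in at least 4 of 5 pairs, up to 4 members per pathway list by p, a fixed set of marker genes, and the 6 smallest p of the difference between contrasts (125 genes in all). Of these, 121 were kept for this report, and not all of them are printed in the text. Other genes described are list members, and Trbc1 from outside the lists, chosen after their values were seen. The members, lists and rules were chosen with earlier results of these data known, and the ribosomal and mitochondrial lists were added after seeing the data. Promoters came from RefSeq (GRCm38.p6).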

Additional observations from a re-analysis of the deposited data

Results flagged for a closer look

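In 23 of 233 groups of 5 libraries read for the named genes, 1 library stood apart from the other 4 by more than 0.71 of the group's range. MPP replicate 4 was such a library for 6 genes, HSC replicate 1 and MPP replicate 5 for 4 each and HSC replicate 3 for 3. A chance rate of about 1 in 20 holds for this cut-off only with independent, normally distributed values. The rule was applied to CPM, which lay near the floor in some flagged groups. Amotl2 in MPP is an example (1.069 CPM in replicate 3, others up to 0.2275). Genes read in the same library are also not independent. The count of 23 therefore cannot be set against that rate, and no excess is claimed.

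In MPP replicate 4 the levels were lower than in the other MPP libraries for Cdc45 (23.99 CPM, others 30.38 to 31.45), Itgb5 (11.23, others 53.83 to 68.21), Ly9 (6.973, others 32.47 to 41.01), Mecom (29.43, others 87.25 to 106.2) and Pkm (579.0, others 924.1 to 1002.0), and higher for Prim1 (111.1, others 55.28 to 70.57). In MPP replicate 5 they were higher for Cdkn1c (6.349 CPM, others up to 4.806), Epor (61.33, others up to 23.15) and Grb10 (96.83, others up to 62.27) and lower for Sstr2 (8.009, others from 21.95). Single genes stood apart in the other MPP libraries: Ccnd3 in replicate 1 (219.4 CPM, others 250.8 to 252.1), Aurkb in replicate 2 (22.98, others from 34.19) and Amotl2 in replicate 3 (1.069, others up to 0.2275).

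HSC replicate 1 was above the other HSC libraries for Bpifc (3.276 CPM, others up to 0.8841), Cd33 (0.878, others 0), Dntt (2.094, others up to 0.4789) and Gimap5 (47.38, others up to 30.57), and HSC replicate 3 for Cavin2 (200.4, others up to 78.04), Cdca8 (200.8, others up to 136.2) and Dcn (3.389, others up to 0.1648). HSC replicate 2 was above for Itgb7 (23.95 CPM, others up to 15.41) and Mpo (117.3, others up to 25.1), and HSC replicate 5 for Hoxb5 (13.93, others up to 4.712).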

How the results depend on the processing

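The count of 451 called genes was 844 with DESeq2 and 1238 with the replicate block (1339 with the block and only the 10 Lepr- libraries, 1120 with the block without replicate 4), and 768 without the 3 Lepr+ libraries least like their group. It was 81 with the June and 0 with the July libraries alone, and 152 to 441 without each replicate number in turn, 246, 156 and 152 of them without replicates 1, 2 and 3. Without single Lepr- libraries it was 301 to 462. With RLE factors, limma voom, the other filters or only the 10 Lepr- libraries it was 360 to 654. The alternatives without 3 Lepr+ libraries and with the block without replicate 4 were chosen after seeing the data. The block kept the calls of all 78 called named genes and added 17. Over the 10 fits without 1 Lepr- library, 53 of the 78 were called in each. The count for the difference between contrasts was 19 with DESeq2 and 0 in every edgeR and limma fit. No called named gene changed sign, though these genes were called from the same libraries. Of the other named genes, Dcn was at 0.000 and Srpx at -2.41 with the July libraries alone. Without MPP replicate 4 the calls numbered 17 higher and 1 lower for platelet genes, 14 lower for lymphoid, 8 for S phase and 13 for mitotic genes. Simulated differences of 1 on the log2 scale were mostly missed at this number of libraries.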
